A study of Mus musculus with 4 samples.

Results

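The CC chemokines are small secreted proteins with a pair of adjacent cysteines that guide leukocytes into tissue. The 8 mouse genes described here are Ccl2, Ccl3, Ccl4, Ccl5, Ccl6, Ccl7, Ccl9 and Ccl12. Their probes were found through the RefSeq accession that the scanner files give for each spot. The 8 genes had 9 probes and 18 spots, out of 41174 probes that stood for 33269 genes or accessions on the array, of which 16534 had a gene symbol. Ccl2 was printed as 10 spots of 1 probe, Ccl7 had 2 different probes, and the other genes had 1 spot each.

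RNA came from the brains of male C57BL/6J mice aged 9 weeks, 6 h after a filament had been advanced from the carotid artery to block the middle cerebral artery for good. Saline was given into the ventricle right after the blockage. The 4 tissues were ischemic core, healthy core, ischemic penumbra and healthy penumbra, where the core is the center of the territory that loses blood flow and the penumbra the rim around it. Each of 4 two-colour arrays on 1 slide paired an ischemic tissue with its healthy counterpart. Core tissue was on replicates 1 and 2 and penumbra tissue on replicates 3 and 4, with the dyes exchanged within each region. Replicates 1 and 3 had ischemic RNA in Cy5, and replicates 2 and 4 had it in Cy3. The labels name 3 mice per group, selected by neurological grade. They say neither whether their RNA was pooled nor whether healthy tissue came from the opposite hemisphere or from other animals, and all tissues shared the strain and sex. Every ratio therefore describes 1 replicate per region, read in both dye orientations, and no p-value is given. Errors are the SD between the 2 arrays of a region, or between the 2 dyes for a tissue level, and are not a spread between animals.

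CC chemokines act through receptors of the Ccr family on the cells they attract. Ccl2, Ccl7 and Ccl12 bind Ccr2 and draw monocytes out of blood, Ccl3 and Ccl4 attract monocytes and other leukocytes and are made quickly by activated microglia and other myeloid cells, and Ccl5 attracts T cells and monocytes. Ccl6 and Ccl9 bind Ccr1 and are made by myeloid cells of rodents without prior stimulation. After a stroke, such genes are known to be switched on within hours by microglia, astrocytes and endothelium, partly through NF-kappaB and AP-1, before most leukocytes enter.

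All 8 genes lie on chromosome 11 in 2 groups of neighbours. In the RefSeq gene table of GRCm38.p6, the first group runs Ccl2, Ccl7, Ccl11, Ccl12, Ccl8 and Ccl1 with no other coding gene between them. After 25 other coding genes, the second group runs Ccl5, Ccl9, Ccl6, Ccl3 and Ccl4, also with none between them. The annotated spans of Ccl3 and Ccl4 overlap in that table. The RefSeq promoter table of the same build held 4 of the 8 genes, namely Ccl3, Ccl6, Ccl9 and Ccl12. Of these, 3 are printed, each as the 250 bases before the annotated start and in the direction of the gene. They are Ccl3 for its large response, Ccl12 for its opposite sign in the penumbra, and Ccl9 because it held every motif searched. Capitals mark matches to the motifs.
Ccl3, chr11:83649379-83649628, minus strand: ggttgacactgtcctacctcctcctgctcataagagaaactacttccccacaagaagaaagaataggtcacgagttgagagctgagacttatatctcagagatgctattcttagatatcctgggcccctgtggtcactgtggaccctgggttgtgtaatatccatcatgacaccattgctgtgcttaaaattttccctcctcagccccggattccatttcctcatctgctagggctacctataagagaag
Ccl9, chr11:83578637-83578886, minus strand: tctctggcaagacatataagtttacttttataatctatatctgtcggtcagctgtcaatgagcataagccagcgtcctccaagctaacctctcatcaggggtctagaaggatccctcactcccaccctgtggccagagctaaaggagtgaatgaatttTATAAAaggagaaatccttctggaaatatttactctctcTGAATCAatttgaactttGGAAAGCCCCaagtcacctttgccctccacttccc
Ccl12, chr11:82101595-82101844, plus strand: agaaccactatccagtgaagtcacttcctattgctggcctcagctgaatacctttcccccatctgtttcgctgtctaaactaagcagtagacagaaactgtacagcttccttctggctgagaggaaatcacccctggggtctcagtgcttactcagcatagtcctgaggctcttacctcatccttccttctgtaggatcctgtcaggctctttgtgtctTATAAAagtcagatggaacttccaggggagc

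The motifs searched were the NF-kappaB consensus and the AP-1 motif TGANTCA on both strands, and the TATA box TATAAA on the gene's strand. In TGANTCA, N stands for any base. The Ccl9 window held a TATAAA that began 92 bases before the start and an NF-kappaB match on the opposite strand at 35 bases. It also held a match to TGANTCA at 53 bases, with A as the middle base. The Ccl12 window held a TATAAA at 31 bases. The windows of Ccl3 and Ccl6 held none of these letters. Of 32851 mouse promoter windows of the same length, 7.25% held the NF-kappaB consensus, 6.75% the AP-1 motif and 7.59% the TATA box, and no motif overlapped another in the printed windows.

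In ischemic core, Ccl4, Ccl3, Ccl2 and Ccl7 were higher than in healthy core by the size rule, under which a region's arrays average a change of 2-fold or more and each array alone shows 1.5-fold or more, in one direction. These 4 of 8 stand against 0.310% of 24533 measured features called higher in the core. The median log2 ratio of the 8 genes was 1.32, against -0.01 over all features. Both core arrays were above 0 for 8 of 8 genes, against 26.9% of features. In ischemic penumbra, Ccl4 and Ccl3 were higher than in healthy penumbra, 2 of 8 against 0.241% of 24925 features, and Ccl12 was lower. Under the main setting, background correction with an offset of 50 added to every signal, it was the 1 feature called lower there, or 0.00401% of those measured. The median of the 8 genes was 0.40 in the penumbra, against -0.01 over all features, and both penumbra arrays were above 0 for 5 of 8 genes, against 30.3% of features. When arrays were centered on 10 spike-in control probes instead, the median of all features moved to -0.48 in core and -0.47 in penumbra. The median of the 8 genes was then 0.85 in the core, with 6 of 8 means above 0, and -0.07 in the penumbra. Ccl12 was not alone below in the penumbra under other settings, where spike-in centering called 41 features lower, Agilent's processed signals 30, an offset of 10 called 3, centering on the array median 2, and penumbra replicate 4 alone 11.

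**Figure D1:**
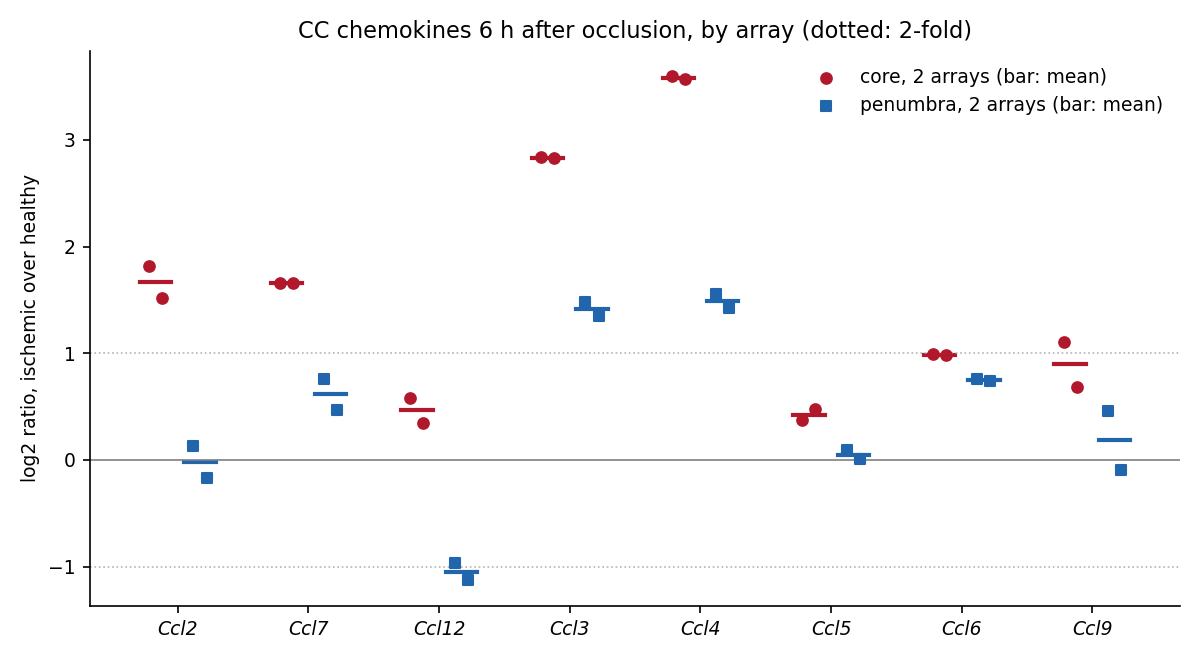
Log2 ratio of ischemic over healthy tissue (vertical axis) for each CC chemokine on the 2 core arrays (circles, left) and the 2 penumbra arrays (squares, right), with the mean of each region as a bar and dotted lines at 2-fold. Every core point lies above the penumbra points of its gene, from Ccl6, whose regions differ by 0.23, to Ccl4, whose regions differ by 2.10.

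Ccl4, an attractant of monocytes and other leukocytes, had the highest ratios of the 8. Its log2 ratios were 3.60 and 3.57 in core and 1.56 and 1.42 in penumbra. All 4 arrays pointed the same way, and the core arrays were above the penumbra arrays. The mean was 3.59 ± 0.02 in the core, or 12.0-fold, and 1.49 ± 0.10 in the penumbra, or 2.81-fold (SD, 2 arrays each). Its normalized log2 intensity in Cy3 and Cy5 was 10.48 and 10.54 in ischemic core, 6.94 and 6.90 in healthy core, 10.08 and 10.32 in ischemic penumbra, and 8.76 and 8.67 in healthy penumbra. Healthy core thus had the lowest reading in both dyes, and the 2 ischemic tissues had the highest.

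Ccl3, the neighbour of Ccl4 on the chromosome and a ligand of Ccr1, had a like order of tissues. Its log2 ratios were 2.84 and 2.83 in core and 1.48 and 1.35 in penumbra, with means of 2.84 ± 0.01, or 7.14-fold, and 1.42 ± 0.09, or 2.67-fold. The log2 intensity of Ccl3 was 10.05 and 10.13 in ischemic core, 7.29 and 7.23 in healthy core, 9.99 and 10.10 in ischemic penumbra, and 8.62 and 8.64 in healthy penumbra. The readings of the 2 ischemic tissues overlapped, with ischemic core higher by 0.04. Both ischemic tissues were above healthy penumbra, and healthy penumbra was above healthy core by 1.37 in the mean. The ratios of Ccl3 and Ccl4 moved with the handling of background, and both genes were dim in healthy core. The lowest of their scanner signals there was 2.07 times the local background for Ccl3 and 1.67 times for Ccl4. Agilent's processed signals have no offset added to them. With these, the core log2 ratios were 3.49 ± 0.20 for Ccl3 and 4.52 ± 0.27 for Ccl4, and the penumbra ratios 1.66 ± 0.14 and 1.62 ± 0.04 for the same genes. With the arrays scaled on spike-in controls, the penumbra ratio of Ccl3 was 0.96 and its call ended.

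Ccl2, the main ligand of Ccr2 and an attractant of monocytes, was called higher in the core and not in the penumbra. Its log2 ratios were 1.82 and 1.52 in core and 0.13 and -0.17 in penumbra. The penumbra arrays lay on either side of 0. The mean was 1.67 ± 0.21 in the core, or 3.18-fold, and -0.02 ± 0.21 in the penumbra. The 10 spots of the Ccl2 probe show how closely an array repeated itself. They ran over 1.67 to 1.96 on core replicate 1, 1.36 to 1.60 on core replicate 2, 0.03 to 0.27 on penumbra replicate 3 and -0.21 to -0.10 on penumbra replicate 4. The SD over spots was 0.10, 0.07, 0.08 and 0.03 on these arrays, below the SD of 0.21 between the 2 arrays of each region. The 2 arrays of a region differ in dye orientation, and the one with ischemic RNA in Cy5 was the higher in both regions. Spots on 1 array share the same RNA and are not replicates.

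The penumbra ratio of Ccl2 near 0 came with a high level in both penumbra tissues. The log2 intensity of Ccl2 was 10.15 and 10.33 in ischemic core, 8.51 and 8.63 in healthy core, 9.92 and 10.01 in ischemic penumbra, and 9.87 and 10.08 in healthy penumbra. The readings of ischemic and healthy penumbra overlapped, and healthy core stood 1.39 below the lower of these means.

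Ccl7, which binds Ccr2 among other receptors and lies next to Ccl2, was also higher in the core. With its brighter probe, A_51_P436652, the log2 ratios were 1.66 and 1.66 in core and 0.76 and 0.47 in penumbra. With the dimmer probe, A_52_P208763, they were 1.35 and 1.39 in core and 0.64 and 0.54 in penumbra. The probes gave the same order of regions and the same signs. The brighter probe had a mean of 1.66 ± 0.00 in the core, or 3.16-fold, and 0.61 ± 0.20 in the penumbra, or 1.53-fold and not called. Its log2 intensity was 8.62 and 8.61 in ischemic core, 6.96 and 6.96 in healthy core, 8.15 and 8.42 in ischemic penumbra, and 7.66 and 7.68 in healthy penumbra, 4 levels with no overlap. With processed signals the core ratio of Ccl7 was 2.41 ± 0.14.

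Ccl12, a mouse ligand of Ccr2, had ratios of opposite sign in the regions, except with spike-in scaling, which put the core ratio at -0.01 and the penumbra ratio at -1.52. Its log2 ratios were 0.58 and 0.35 in core and -0.97 and -1.13 in penumbra, and neither region's arrays crossed 0. The mean was 0.46 ± 0.16 in the core, not called, and -1.05 ± 0.11 in the penumbra, where healthy tissue had 2.07 times the level of ischemic tissue. The penumbra call was near its threshold and ended without penumbra replicate 4, which left the -0.97 of replicate 3.

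The levels of Ccl12 set it apart from the other 7 genes in 1 respect, since its highest tissue was a healthy one by all readings. Its log2 intensity was 8.45 and 8.40 in ischemic core, 7.82 and 8.10 in healthy core, 8.52 and 8.60 in ischemic penumbra, and 9.58 and 9.65 in healthy penumbra. Healthy penumbra was above ischemic penumbra by 1.05, and the 2 ischemic tissues differed by 0.14. For the other 7 genes, the highest mean was in ischemic core (Ccl2, Ccl3, Ccl4, Ccl5, Ccl7 and Ccl9) or in ischemic penumbra (Ccl6).

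Ccl6 and Ccl9, the neighbouring rodent ligands of Ccr1, did not reach 2-fold in either region. The log2 ratios of Ccl6 were 0.99 and 0.98 in core and 0.76 and 0.74 in penumbra. These 4 values were all above 0, and the SD was 0.01 in each region. The means were 0.99 in the core, just under the 2-fold threshold, and 0.75 in the penumbra. The call of Ccl6 in the core turned on the offset, with 5 genes called at an offset of 10, Ccl6 among them, and a log2 ratio of 1.08 with processed signals. Its log2 intensity was 9.86 and 9.78 in ischemic core, 8.79 and 8.89 in healthy core, 9.97 and 9.95 in ischemic penumbra, and 9.19 and 9.23 in healthy penumbra.

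Ccl9 had the largest spread between arrays of the 8. Its log2 ratios were 1.11 and 0.68 in core and 0.46 and -0.09 in penumbra, with means of 0.90 ± 0.31 and 0.18 ± 0.39. In both regions the array with ischemic RNA in Cy5 had the higher ratio, as it also had for Ccl2, Ccl3, Ccl4, Ccl6 and Ccl12. Neither region was called, and without core replicate 2 the core value of 1.11 passed the threshold. Its log2 intensity was 10.43 and 10.58 in ischemic core, 9.46 and 9.74 in healthy core, 10.13 and 10.42 in ischemic penumbra, and 9.97 and 10.22 in healthy penumbra, where the readings of the 2 penumbra tissues overlapped.

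Ccl5, an attractant of T cells and monocytes, was the dimmest in relation to its background. Its scanner signal was between 1.30 and 1.84 times the local background in every tissue, although the scanner software placed all its spots well above background. The log2 ratios were 0.37 and 0.48 in core and 0.09 and 0.01 in penumbra, with means of 0.43 ± 0.08 and 0.05 ± 0.06. Its log2 intensity was 6.85 and 6.82 in ischemic core, 6.45 and 6.37 in healthy core, 6.75 and 6.78 in ischemic penumbra, and 6.70 and 6.74 in healthy penumbra, a range of under 1 log2 unit. Without the offset, in processed signals, Ccl5 had 1.12 ± 0.27 in core and was called, and -0.02 ± 0.19 in penumbra. With spike-in scaling its ratio was -0.05 in core and -0.42 in penumbra.

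**Figure D2:**
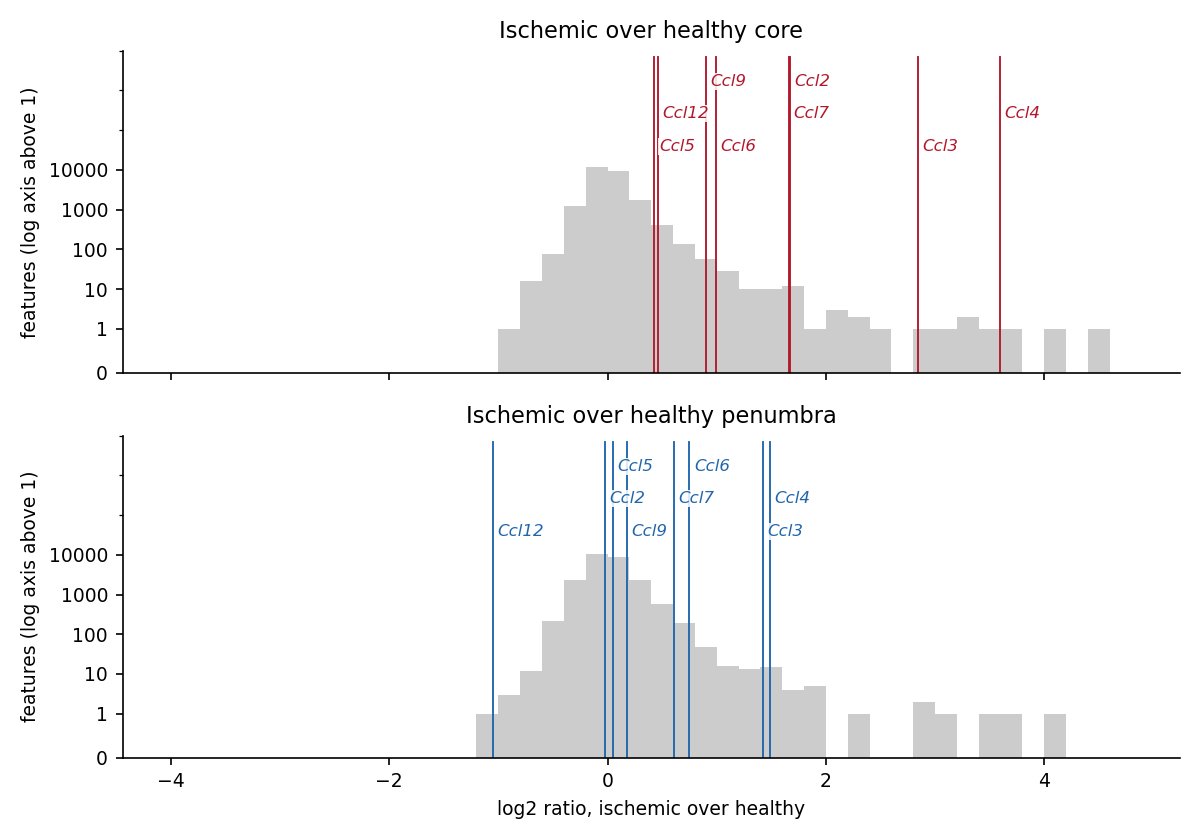
Number of measured features (vertical axis, log above 1) by log2 ratio of ischemic over healthy tissue (horizontal axis, bins of 0.2) in the core (upper panel) and the penumbra (lower panel), with a line at the mean ratio of each CC chemokine. Within 0.5 of 0 lay 98.1% of features in core and 97.9% in penumbra. Ccl4 and Ccl3 stand in the thin upper tail of both panels, and among the 8 genes Ccl12 alone stands below -1 in the lower one.

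The ratios of the regions were then set against each other. For Ccl4, Ccl2, Ccl12, Ccl3 and Ccl7 the ischemic over healthy log2 ratio was at least 1 higher in the core than in the penumbra, with both core arrays above both penumbra arrays. These 5 of 8 stand against 0.0396% of 25246 features, or 10 in all. The differences were 2.10 for Ccl4, 1.69 for Ccl2, 1.52 for Ccl12, 1.42 for Ccl3 and 1.05 for Ccl7. Ccl9 had 0.71, Ccl5 0.38 and Ccl6 0.23. Both core arrays were above both penumbra arrays for 8 of 8 genes, against 15.7% of features, and the median difference of the 8 was 1.23, against 0.01 over all features. Processed signals gave 2.89 for Ccl4 and 1.14 for Ccl5, which was then called. The difference of Ccl7 lost its call without penumbra replicate 4, at 0.90, and with the mean over its probes. limma over arrays, whose p-values measure the spread between arrays only, called 2 features in this difference, with Ccl4 as 1 of them. With a coefficient for the dye it called 15, among them the 5 genes above. A limma call also asked for a difference of at least 1 log2, as the size rule does. These calls are therefore not separate support for the 5 genes.

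Each ratio has an ischemic and a healthy side, so the tissues were also compared one with one within each dye. In ischemic tissue, core and penumbra differed by under 0.5 log2 for every one of the 8 genes. The same held for 91.7% of 24872 features, so this is not particular to the 8. The differences of ischemic core over ischemic penumbra were 0.34 ± 0.20 for Ccl7, 0.30 ± 0.12 for Ccl4, 0.28 ± 0.06 for Ccl2, 0.22 ± 0.10 for Ccl9, 0.07 ± 0.05 for Ccl5, 0.04 ± 0.02 for Ccl3, and -0.14 for both Ccl6 (± 0.04) and Ccl12 (± 0.10). By the size rule 0 of 8 were called, where 0.430% of 24872 features were called higher and 0.913% lower. The median of the 8 genes was 0.15, against 0.02 over all features.

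In healthy tissue, core was below penumbra for 8 of 8 genes in both dyes, against 32.4% of features. Ccl4 differed by -1.80 ± 0.04 (healthy penumbra had 3.47 times the level of healthy core), Ccl12 by -1.66 ± 0.15 (3.15 times), Ccl2 by -1.41 ± 0.06 (2.65 times) and Ccl3 by -1.37 ± 0.06 (2.59 times). These 4 of 8 were called lower, against 0.820% of 24891 features. Ccl7 had -0.71 ± 0.01, Ccl9 -0.49 ± 0.02, Ccl6 -0.37 ± 0.04 and Ccl5 -0.31 ± 0.09, and the median of the 8 was -1.04, against 0.01 over all features. Healthy core had the lowest mean of the 4 tissues for all 8 genes. The share of all features with this order was not computed. It follows in part from the counts already given for healthy tissue and for the core arrays. With processed signals Ccl4 had -2.56 ± 0.36, and Ccl7, at -1.11 ± 0.16, was called as well.

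The difference between the regions' responses is, by construction, the difference between their ischemic tissues minus that between their healthy tissues. All come from the same 4 arrays, so they are not separate evidence. For Ccl3 a difference in response of 1.42 stood beside 0.04 between ischemic tissues and -1.37 between healthy ones. For Ccl2 a difference in response of 1.69 stood beside 0.28 and -1.41, and for Ccl4 one of 2.10 beside 0.30 and -1.80. For Ccl12 one of 1.52 stood beside -0.14 and -1.66. Ccl7 was more evenly divided, with 1.05 beside 0.34 and -0.71.

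**Figure D3:**
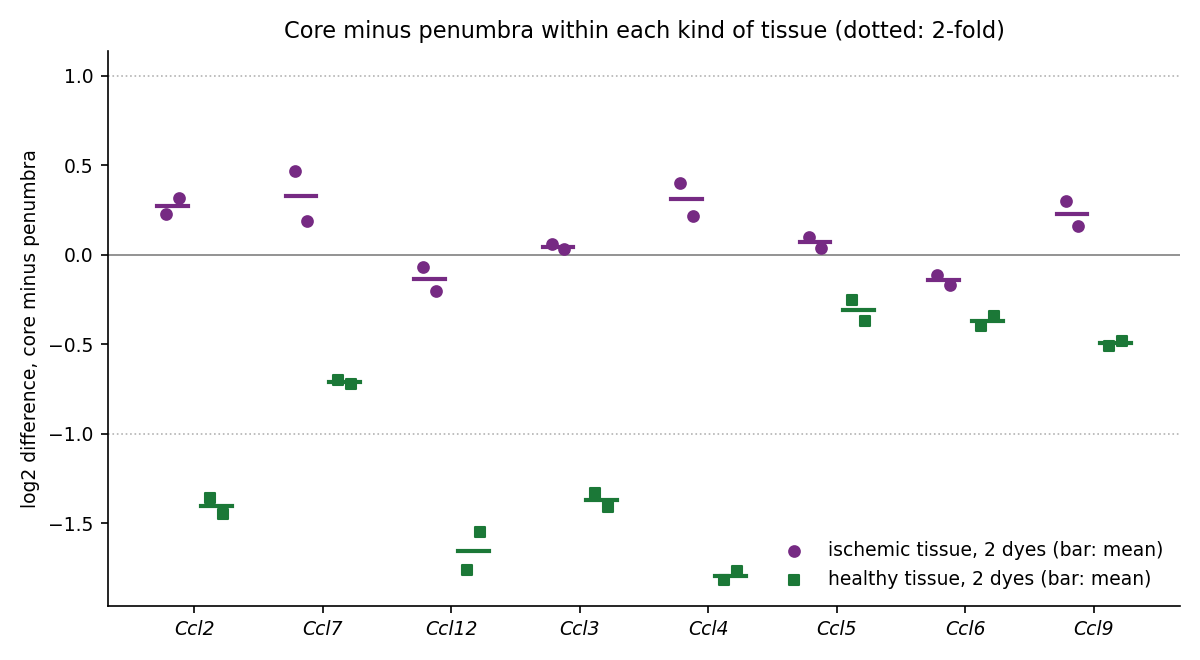
Log2 difference of core minus penumbra (vertical axis) for each CC chemokine in ischemic tissue (circles, left) and healthy tissue (squares, right), read in each of 2 dyes, with means as bars and dotted lines at 2-fold. Ischemic tissues lie between -0.14 and 0.34 in the mean, while healthy tissues lie between -1.80 and -0.31.

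**Figure D4:**
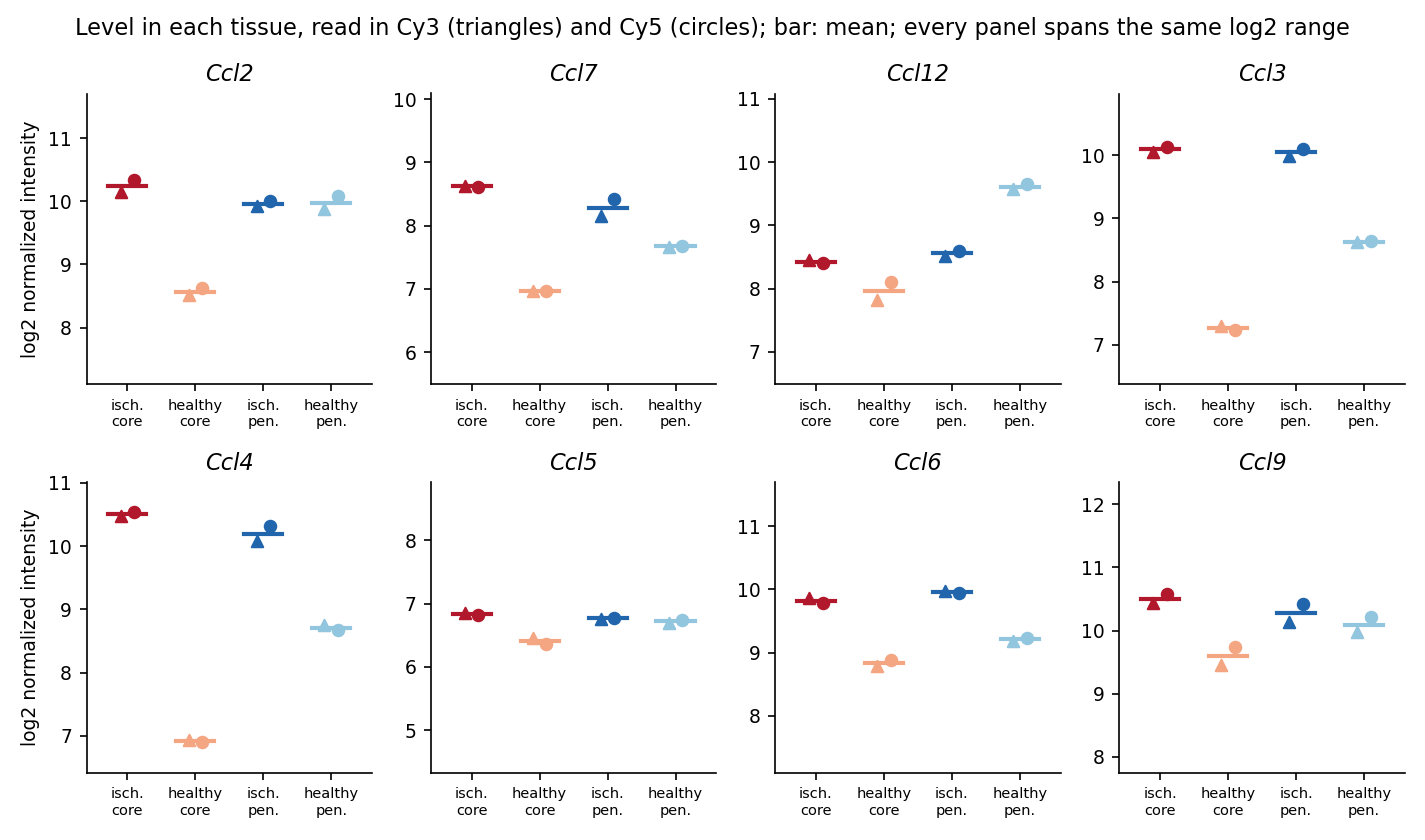
Normalized log2 intensity (vertical axis) of each CC chemokine in ischemic core, healthy core, ischemic penumbra and healthy penumbra, read in Cy3 (triangles) and Cy5 (circles), with means as bars. Every panel spans the same log2 range but starts at its own level, since probes differ in brightness. Healthy core is the lowest tissue in each panel, and healthy penumbra is the highest for Ccl12.

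Healthy core and healthy penumbra also differed in markers of neighbouring structures. Of 8 measured choroid plexus and ependymal markers, whose list begins with Ttr, Kl and Clic6, 7 were called lower in healthy core than in healthy penumbra, with a median of -3.34, and 8 were called lower in ischemic core than in ischemic penumbra, with a median of -3.98. Within regions 0 of the 8 were called, with median log2 ratios of 0.01 in core and 0.63 in penumbra. Their summed intensity was 2160 to 2210 in ischemic core, 2100 to 2160 in healthy core, 37700 to 40500 in ischemic penumbra, and 24000 to 25400 in healthy penumbra. The summed intensity of the 8 chemokines was 6790 to 7140 in ischemic core, 2230 to 2480 in healthy core, 5960 to 6610 in ischemic penumbra, and 4420 to 4800 in healthy penumbra. The chemokines and the choroid plexus list thus both stood lower in healthy core than in healthy penumbra, while the choroid plexus list stood far lower in ischemic core as well. Meningeal fibroblast markers, whose list begins with Dcn, Lum and Col1a1, went the other way in healthy tissue. Their healthy core minus healthy penumbra differences had a median of 0.65, from -0.37 to 0.90, and 0 of 10 were called. Their log2 ratios had a median of 0.38 in the penumbra, with 10 of 10 above 0, and -0.07 in the core, with 0 called in either. With spike-in scaling the penumbra median was -0.08. Their summed intensity was 27800 to 28100 in ischemic core, 29600 to 30200 in healthy core, 28800 to 29200 in ischemic penumbra, and 21800 to 22000 in healthy penumbra. The part of choroid plexus and of meninges in the chemokine levels was not tested. In whole tissue, a change in the number of cells of a type and a change in RNA per cell cannot be told apart.

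Markers of the cells that make or follow these chemokines were read in the same way. Of 17 microglial markers, whose list begins with P2ry12, Tmem119 and Cx3cr1, 0 were called in either region, and their medians were -0.01 in core and 0.02 in penumbra. Their summed intensity was 54900 to 55800 in ischemic core, 53700 to 57000 in healthy core, 60900 to 61500 in ischemic penumbra, and 57800 to 60100 in healthy penumbra. Healthy core had a median of -0.09 against healthy penumbra over the 17 markers, from -0.42 to 0.05. Of 9 measured neutrophil markers, 3 were called higher in both regions, namely S100a8, S100a9 and Retnlg, with list medians of 0.56 in core and 0.28 in penumbra. The summed intensity of the neutrophil list was 14900 to 15700 in ischemic core, 3920 to 4060 in healthy core, 11600 to 14600 in ischemic penumbra, and 4440 to 4790 in healthy penumbra. With spike-in scaling the same number of neutrophil genes was called, and the list medians were 0.09 in core and -0.18 in penumbra. Processed signals gave this list medians of 2.41 in core and 1.29 in penumbra, with 5 of 9 called in each. An offset of 10 gave 1.07 with 5 called in core and 0.54 with 3 called in penumbra. The part of neutrophils in the chemokine ratios was not tested.

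Of 13 monocyte and macrophage markers, which begin with Ccr2, Lyz2 and Lyz1, 0 were called in the core, with a median of 0.23 and a range of -0.15 to 0.97, and of the 12 measured in the penumbra 0 were called, with a median of 0.16. In the core, 4 of the 13 were called with processed signals and 2 with an offset of 10. Their sum was 9120 to 9580 in ischemic core, 7550 to 7870 in healthy core, 8390 to 9030 in ischemic penumbra, and 6530 to 6860 in healthy penumbra. The lists of T and NK cells, of endothelium and pericytes, of astrocytes, of meningeal fibroblasts, of neurons and of blood had 0 called genes in either region with the offset of 50, with medians between -0.08 and 0.13 in core and between -0.14 and 0.38 in penumbra. Processed signals called 1 of them, the T and NK cell gene Gzma, in the core, at 1.72 ± 1.42, named after its value was seen. Between healthy tissues, 2 of 7 measured T and NK cell markers were called lower in the core, Cd4 and Il2rb, both named after their values were seen, while Cd3g and Gzmb were above background in no tissue.

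Of the CC chemokines outside these 8, 12 were on the array by symbol, 8 of them well above background in all 4 tissues and 2, Ccl1 and Ccl22, in none. In the core 0 of 10 measured genes were called, with a median log2 ratio of 0.01, and in the penumbra 0 of 9, with a median of -0.19. With spike-in scaling 1 gene was called in the penumbra, Ccl17, at -1.03, named after its value was seen. Ccl21a, a lymphoid chemokine that binds Ccr7, had 0.04 ± 0.01 in core and -0.40 ± 0.06 in penumbra. It was the 1 gene of this list called between tissues, at 1.16 ± 0.12 in ischemic core over ischemic penumbra. Ccl27a had 0.03 ± 0.03 and -0.19 ± 0.05 in core and penumbra, and Ccl25 had 0.05 ± 0.03 and 0.13 ± 0.04. The remaining neighbours of Ccl2, Ccl7 and Ccl12 on the chromosome were looked up after their values were seen. Ccl11 had 0.59 in core and -0.04 in penumbra, Ccl8 had -0.43 and -0.31, and neither was called. With processed signals both were called in the core, Ccl11 at 3.05 ± 0.42 and Ccl8 at -1.23 ± 0.05. With an offset of 10, Ccl11 alone was called in the core, at 1.13. In the difference between the regions' responses, 1 gene of this list was called under each of these settings.

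Receptors of these ligands could be read less fully. Of 15 receptor genes on the array, 7 were well above background in all 4 tissues and 4 in none, among them Ccr1, the receptor of Ccl6 and Ccl9. Of 9 measured in the core 1 was called, with a list median of 0.07, and of 10 measured in the penumbra 0 were called, with a median of -0.03. The called gene was Ccrl2, an atypical receptor that binds chemerin and does not signal in migration, with 1.13 ± 0.15 in core and 0.67 ± 0.03 in penumbra. With spike-in scaling Ccrl2 had 0.65 in the core, and 0 receptors were called. With processed signals 3 receptors were called in the core, Ccrl2 at 1.35 ± 0.16 among them, and 2 in the difference between responses. The atypical receptors Ackr1 and Ackr2, which take up chemokines without signalling for migration, had -0.18 ± 0.10 and -0.45 ± 0.34 in the core. Ccr2 was looked up after its values were seen. It was well above background in 1 tissue, with 0.23 ± 0.03 in the core. Its value there was 0.50 with an offset of 10 and 2.15 ± 0.46 with processed signals, where it was called.

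Of 16 measured regulators of chemokine transcription and mRNA decay, 4 were called higher in core and 3 in penumbra, with medians of 0.55 and 0.26. Nfkbiz, an NF-kappaB cofactor, had 1.36 ± 0.08 in core and 0.64 ± 0.01 in penumbra. The AP-1 genes were called in both regions. Fos had 3.34 ± 0.32 and 3.02 ± 0.31, Junb 1.35 ± 0.05 and 1.34 ± 0.02, and Jun 1.02 ± 0.01 and 1.22 ± 0.01 in core and penumbra. Between the regions' responses 0 of 16 regulators were called, with a median difference of 0.13. Between healthy core and healthy penumbra the values were -0.25 ± 0.12 for Fos, -0.26 ± 0.06 for Junb, 0.04 ± 0.09 for Jun and -0.04 ± 0.11 for Nfkbiz, and 0 of 16 were called. With spike-in scaling 1 regulator, Fos, was called in each region, and the list medians were 0.08 in core and -0.21 in penumbra.

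Among 13426 named genes measured in both regions, the 8 chemokines themselves left out, those closest to each called chemokine were found by the Euclidean distance over 8 values, the 4 tissues in 2 dyes, with each gene centered on its own mean. Closest to Ccl2 was Cxcl1, which draws neutrophils, 0.35 log2 away, followed by Bcl2a1b at 0.76 and Cxcl10 at 0.78. The median distance of all genes from Ccl2 was 1.91. Cxcl1 had 1.67 ± 0.04 in the core, -0.26 ± 0.09 in the penumbra and -1.50 ± 0.21 between healthy core and healthy penumbra. Closest to Ccl7 were Adamts1 at 0.46, Cd14 at 0.48 and Gadd45b at 0.52, where the median was 1.85. Among the 8 chemokines, Ccl2 and Ccl7 lay 0.86 apart, and the nearest to Ccl7 was Ccl6 at 0.73.

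Ccl3 and Ccl4 lay 0.78 apart. Outside the 8, the closest to Ccl3 were S100a8 at 1.08, S100a9 at 1.12 and Retnlg at 1.15, all of the neutrophil list. The closest to Ccl4 outside the 8 were S100a9 at 1.61, S100a8 at 1.62 and the immediate early gene Egr2 at 1.75. The neutrophil genes had higher ratios in both regions, but in healthy core they differed from healthy penumbra by -0.37 to -0.34. Closest to Ccl12 outside the 8 were Cacng1 at 0.77, Ceacam10 at 0.78 and Lpl at 0.79. These had -0.47 ± 0.02, -0.44 ± 0.16 and -0.56 ± 0.22 in the penumbra, and were lower in healthy core than in healthy penumbra by at least 2-fold, at -1.12 ± 0.04, -1.20 ± 0.05 and -1.18 ± 0.16 in the same order. The 8 values share 4 arrays, and these distances are a description.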

How the data were processed

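Total RNA from ischemic and healthy core and penumbra was hybridized to 4 two-colour Agilent arrays. Per the file headers, the deposited scanner files hold the intensity of each spot in Cy3 and Cy5. The submitters' processing notes name Agilent Feature Extraction 11.0.1.1. The authors' series table holds log10 ratios. These matched log10 of processed Cy5 over Cy3 signal with a largest gap of 5e-06, so that scale and direction are known. Its column medians were -0.0215 and 0.00516 (core) and -0.0199 and -0.0115 (penumbra).

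Median spot signals were corrected with normexp (offset 50) in limma 3.58.1 under R 4.3.3. Loess within arrays followed, in which control and outlier spots had weight 0. An offset pulls ratios of dim genes toward 0. Tissue levels were taken after Aquantile scaling. A feature counted as measured if 1 of the 2 tissues compared or both had it well above background on each of their arrays, and the brightest probe stood for a gene. The design build of the array differs from that of the RefSeq tables, so only names, gene order and RefSeq's own promoter coordinates were used. Of 41174 probes, 23374 matched a symbol.

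Signal over background sets the precision. Per array, the median Cy3 signal was 192 to 225 over a background of 64 to 66, the median Cy5 signal was 284 to 310 over 70 to 71, and 76.1% to 79.4% of spots were well above background, with 0 saturated. Slide and scan could not be tested as batches, since there was 1 slide. The median SD between arrays was 0.10 log2 in both regions.

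The 2 arrays of a region were counted as 1 replicate. Calls asked for 2-fold in the mean and 1.5-fold on each array, and for the difference between regions 1 log2 unit with core arrays on one side of both penumbra arrays. The rule was tested on simulated data, in which only genes above a set brightness were changed, each by well over 2-fold. Changes in dim genes such as Ccl5, and changes near the threshold, were thus not covered. The 8 genes, the 14 gene lists (165 entries, 154 on the array) and the rules were chosen with earlier results of these data known. Genes were named by a rule: the 8 genes, listed chemokines, receptors and regulators that were called, the 4 brightest uncalled chemokines or receptors, the first 3 markers of a list, and the 3 genes closest to each called chemokine. Python 3.11.15, pandas 2.3.3, numpy 2.4.6 and matplotlib 3.10.9 were used for tables and plots. One receptor gene is not reported here.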

Additional observations from a re-analysis of the deposited data

Results flagged for a closer look

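In 10 of 57 named genes measured in both regions, or 17.5%, every core array moved one way and every penumbra array the other. The same held for 6.03% of 24199 features. Part of the named genes were picked from these same values, as called genes or as those closest to a called chemokine. The 2 percentages are thus no test of an excess. No test over replicates of the difference was possible, and the difference was not tested in that sense. Ccl12 differed between the responses, core minus penumbra, by 1.52 log2, and Cxcl1 by 1.93. Both differences passed the size rule. In limma over arrays, whose p-values measure the spread between arrays only, Cxcl1 was called with and without a dye coefficient and Ccl12 with it alone. The other 8 differences were called by neither, since each was under 1 log2 and a limma call also asked for that size. By an adjusted p-value under 0.05 alone, Kl, Col1a1, Ceacam10, Ccl21a and Hbb-bt passed in limma with a dye coefficient. The 8 differences were 0.53 for Ceacam10, 0.44 for Ccl21a, 0.22 for Ccl27a and, for the hemoglobin genes, 0.31 for Hbb-bt and 0.21 for Hba-a1. Those below 0 were -0.21 for Aqp4 of astrocytes, -0.88 for Kl of choroid plexus and -0.69 for Col1a1 of fibroblasts. With spike-in scaling, both regions' ratios were below 0 for these 8 and for Ccl12, and the core ratio of Cxcl1 was 1.20.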

How the results depend on the processing

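No analysis paired by replicate was possible because core and penumbra share no replicate number. The arrays of the regions share dye orientations, which the fit with a dye coefficient takes into account. The 2-array pair of each region, with no separate animals in the labels, limits every value, and signal over background limits Ccl5 and the healthy core levels of Ccl3, Ccl4 and Ccl7. The 8 chemokines kept the sign of the difference between responses under 10 of 10 alternatives, and of both differences between tissues under 6 of 6. Spike-in scaling and centering on the array median were not among those 6. Most of these alternatives could not, or could hardly, turn a sign of these differences. Without the filter on dim probes every value of the 8 stayed the same. Leaving out 1 array could not turn a sign, since both core arrays lay above both penumbra arrays for all 8. Neither could 1 dye alone, since the dyes agreed in sign. The mean over probes changed Ccl7 alone, and spike-in scaling moved both regions nearly alike. The Aquantile scaling across arrays, on which the tissue levels rest, was not varied. In the core 2 signs turned, those of Ccl5 and Ccl12, both with spike-in scaling, which lowered the median of all features to -0.48 in the core and -0.47 in the penumbra. In the penumbra the signs of Ccl2, Ccl5 and Ccl9, none of them called, turned under 1 or 2 of 8 alternatives each. That scaling called 31 features higher and 30 lower in the core and 29 and 41 in the penumbra. Agilent's processed signals called 244 features in the core, 219 in the penumbra, 179 in the difference, 856 between healthy tissues and 1038 between ischemic tissues, against 76, 61, 15, 282 and 334. In the difference these were 93 higher and 86 lower. They called 6 of the 8 chemokines in the core, 6 in the difference and 5 between healthy tissues. An offset of 10 called 115 features in the core, 36 in the difference, 424 between healthy and 507 between ischemic tissues. Leaving out 1 array gave 24 to 35 features in the difference, with 4 or 5 of the 8 chemokines. Cy3 alone called 544 between ischemic tissues and Cy5 alone 461 between healthy tissues. limma over arrays, whose adjusted p-values measure the spread between arrays only, called 2 features in the difference. Of these, 1 was among the 8 chemokines, Ccl4. With a dye coefficient it called 15 features, 5 of them among the 8. Its calls also asked for at least 1 log2, as the size rule does, so they are not separate from that rule. The cause of these changes was not tested.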
